A study of Mus musculus with 4 samples.

Results

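Cytotoxic and T or NK genes were described in sorted mouse LSK cells, the lineage-negative, cKit-positive and Sca1-positive fraction of the bone marrow in which blood stem cells and early progenitors are found. The 10 genes were chosen by symbol, as Gzma, Gzmb, Prf1, Ccl5, Nkg7, Klrd1, Il2rb, Thy1, Cd2 and Lat, out of 18193 genes measured, and all 10 had at least 1 probe set on the array. They were represented by 12 of 34945 probe sets naming 1 gene. For each gene the probe set of highest mean log2 intensity was used, and the other probe sets of Prf1 and Il2rb are given beside it. All values were kept, with no filter on low levels.

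Ncstn KO mice carried Ncstn flox/flox alleles and the Mx1-cre+ transgene, and WT mice were Ncstn flox/flox littermates without cre. Both groups received polyIC, an inducer of interferon, in 3 injections of 20 µg per g of body weight from 14 days of age, and were analysed 4 weeks later at 6 weeks of age. There were 2 arrays per genotype, and both sexes were present in each. Ncstn KO replicate 1 and WT replicate 2 were female, Ncstn KO replicate 2 and WT replicate 1 male. The Mx1 promoter is switched on by interferon in many cell types, so such deletion is not limited to LSK cells, and the transgene itself was present only in Ncstn KO mice. Effects of the deletion and of the transgene therefore cannot be told apart here.

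Cytotoxic lymphocytes kill by releasing granules in which perforin opens a way for granzymes, serine proteases that act inside the target cell. Several genes of this program are also active outside mature T and NK cells. Thy1 has long been used to divide mouse stem and progenitor cells, and Lat acts in mast cells and platelets as well as in T cells. In mature T cells, Notch receptors released by gamma-secretase, the complex of which Ncstn encodes a subunit, bind DNA through RBPJ, and Gzmb and Prf1 have been described as Notch-responsive there.

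Ncstn itself, the targeted gene, read 191 and 240.0 intensity units on Ncstn KO replicates 1 and 2, against 530.2 and 505 on WT replicates 1 and 2, a log2 difference of -1.27 (SE 0.22, limma adjusted p = 0.257). The gene's other, less bright probe set read 58.3 and 136 in Ncstn KO and 113 and 111 in WT, so the groups overlapped there. The files do not place either one relative to the deletion. The array medians over all 45101 probe sets were 71.6 and 79.2 in Ncstn KO and 76.7 and 74.98 in WT. The spiked-in hybridization controls, which are added to every sample alike, exceeded WT in Ncstn KO by 0.20 (log2). Of the defining LSK markers, Kit read 3318 and 3389 in Ncstn KO and 3939 and 3036 in WT, and Ly6a, which encodes Sca1, was not analysed here. T cell receptor genes were dim. Cd3e read 31.1 and 23.4 in Ncstn KO and 35.2 and 34.0 in WT. Its partner Cd3d read 49.96 and 48.6 in Ncstn KO and 61.1 and 67.2 in WT, and Cd3g read 28.1 and 20.9 in Ncstn KO and 22.9 and 24.2 in WT. The NK cell receptor gene Ncr1 read 16.5 and 23.4 in Ncstn KO and 20.1 and 25.8 in WT. The means of these 4 lymphocyte genes lay at the 30.6th, 37.9th, 26.7th and 24.8th percentile of all genes, and that of Kit at the 89.9th. Brightness depends on the probes as well as on the transcript, and the lowest value on any array was 3.32, so none of them was listed at 0.

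The granzymes held the largest differences of the 10 genes, and they lay on opposite sides of WT. Gzma, which encodes a tryptase-like granule protease, read 33.4 on Ncstn KO replicate 1 and 163 on Ncstn KO replicate 2, against 284 and 369 on WT replicates 1 and 2. Both Ncstn KO arrays lay below both WT arrays, and the Ncstn KO arrays were themselves far apart. The mean log2 intensity was 6.21 ± 1.62 in Ncstn KO and 8.34 ± 0.27 in WT (SD, n = 2 each), a difference of -2.13 (SE 0.70) or 4.38-fold lower. Gzmb, which encodes a protease that cleaves after aspartate and activates caspases, read 392 on Ncstn KO replicate 1 and 138 on Ncstn KO replicate 2, against 65.8 and 78.8 on WT replicates 1 and 2. Both Ncstn KO arrays lay above both WT arrays, and again replicate 1 was the farther from WT. The mean was 7.86 ± 1.07 in Ncstn KO and 6.17 ± 0.18 in WT (SD, n = 2 each), a log2 difference of 1.69 (SE 0.49) or 3.23-fold higher.

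Neither granzyme passed over all 18193 genes. The limma adjusted p was 0.615 for Gzma (unadjusted p = 0.0223) and 0.553 for Gzmb (unadjusted p = 0.0139). Without Ncstn KO replicate 2, the difference of Gzma was -3.27 and passed (limma adjusted p = 0.0282), and that of Gzmb was 2.44 (adjusted p = 0.0513). Without Ncstn KO replicate 1 they were -0.99 (adjusted p = 0.199) and 0.93 (adjusted p = 0.223). Both differences were thus smaller without the female Ncstn KO array, and with groups that do not overlap their sign could not turn. The smallest p that an exact permutation of 2 against 2 arrays allows for 1 gene is 0.333 (two-sided).

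**Figure D1:**
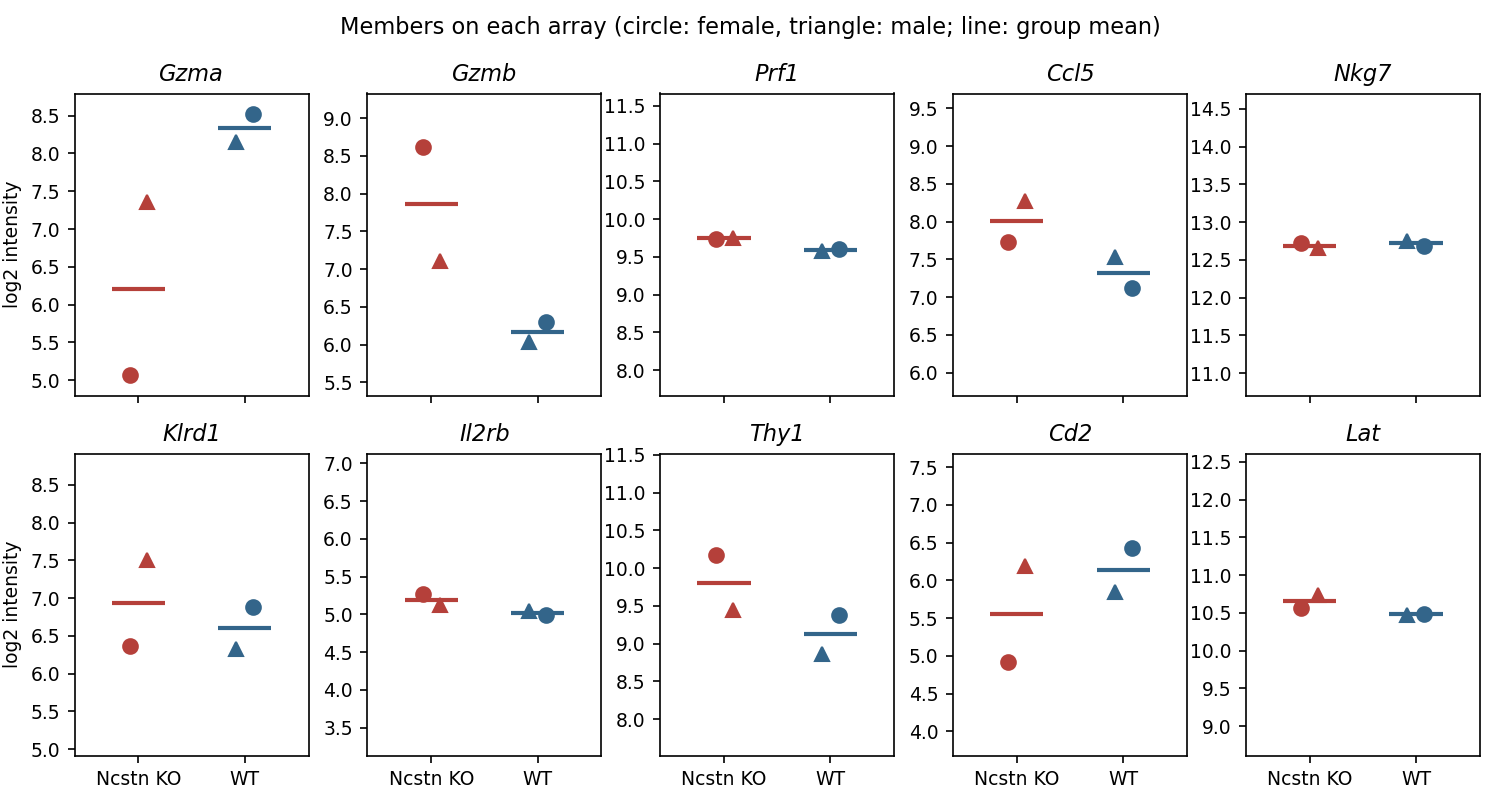
Log2 intensity of each of the 10 genes on the 4 arrays, with Ncstn KO at the left and WT at the right of each panel, circles for females, triangles for males and a line for the group mean. Every panel spans 4 log2 units. Gzma runs from 5.06 on the female Ncstn KO array to 8.53 on the female WT array, Gzmb from 8.61 on the female Ncstn KO array to 6.04 on the male WT array, and Nkg7 and Prf1 stay nearly level.

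The promoters of the granzymes and of perforin are shown because Gzma and Gzmb had differences of opposite sign while Prf1, whose product acts with them, stayed nearly level. RefSeq windows of build GRCm38.p6, from 250 bases before to 50 bases after the gene start, were matched for 5 of the 10 genes, namely Gzma, Gzmb, Prf1, Nkg7 and Lat. The windows lie at chr13:113100932-113101231 on the minus strand for Gzma, chr14:56262285-56262584 on the minus strand for Gzmb and chr10:61297586-61297885 on the plus strand for Prf1. Each is printed 5′ to 3′ along its gene, and capitals mark matches to TGTGGT, a core of the RUNX site, and to TGGGAA, a core of the RBPJ site, each read on both strands.
Gzma: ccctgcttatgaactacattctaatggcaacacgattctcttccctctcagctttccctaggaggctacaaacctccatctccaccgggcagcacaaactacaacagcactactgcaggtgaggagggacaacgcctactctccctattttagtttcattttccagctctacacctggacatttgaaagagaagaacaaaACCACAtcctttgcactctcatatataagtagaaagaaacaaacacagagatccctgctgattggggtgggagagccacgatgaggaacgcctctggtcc
Gzmb: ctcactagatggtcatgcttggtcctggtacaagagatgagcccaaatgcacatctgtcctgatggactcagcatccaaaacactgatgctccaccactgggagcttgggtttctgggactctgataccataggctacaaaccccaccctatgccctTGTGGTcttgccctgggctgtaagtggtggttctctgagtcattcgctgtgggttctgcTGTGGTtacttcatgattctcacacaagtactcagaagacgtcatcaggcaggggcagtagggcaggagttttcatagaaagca
Prf1: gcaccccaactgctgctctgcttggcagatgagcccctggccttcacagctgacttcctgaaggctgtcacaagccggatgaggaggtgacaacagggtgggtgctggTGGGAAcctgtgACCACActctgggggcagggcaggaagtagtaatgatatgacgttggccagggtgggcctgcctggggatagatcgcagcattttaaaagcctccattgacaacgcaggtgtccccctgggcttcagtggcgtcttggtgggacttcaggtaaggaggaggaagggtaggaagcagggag

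The RUNX letters were matched in 5 of the 5 windows, against 16.8% of 32851 windows of the same length in the table. Gzmb held 2 such matches, starting 93 and 34 bases before the gene start, and Gzma held 1, starting 50 bases before it. The RBPJ letters were matched in 2 of the 5 windows, those of Prf1 and Lat, against 25.6% of all windows. In Prf1 the match started 142 bases before the gene start. The letters were not in the windows of Gzma, Gzmb or Nkg7, which says nothing of sites elsewhere. Of the other motifs searched, the AP-1 letters TGANTCA were in 1 of the 5 windows, that of Gzmb, against 7.81% of all windows, and the CREB letters TGACG were in 2, those of Gzmb and Prf1, against 20.8%. The ETS letters AGGAAG were in 3 (35.4% of all windows), the STAT letters TTCNNNGAA in 2 (8.3%) and the E-box CANNTG in 5 (72.3%), and no matches overlapped each other in the 5 windows. A match is a description of the letters and not a bound site, and the motifs were picked with the expression values known.

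Perforin and the granule membrane gene Nkg7 showed small differences. Prf1, which encodes the pore-forming protein of cytotoxic granules, read 855 and 865 in Ncstn KO and 761 and 782 in WT. The Ncstn KO arrays lay above the WT arrays by a narrow margin, with a log2 difference of 0.16 (SE 0.15, limma adjusted p = 0.963), which became -0.04 when arrays were scaled to the hybridization controls. Its dimmer probe set read 55.4 and 54.2 in Ncstn KO and 51.4 and 66.6 in WT, a difference of -0.10 (SE 0.27, in a limma fit over all probe sets) with overlapping groups. Nkg7, which encodes a membrane protein of cytotoxic granules needed for their release, read 6765 and 6443 in Ncstn KO and 6910.2 and 6573 in WT. The groups overlapped, and the log2 difference was -0.03 (SE 0.07, adjusted p = 0.993). The mean of Nkg7 lay at the 97.7th percentile of all genes, the highest place among the 10. Without WT replicate 1 or without Ncstn KO replicate 2 its difference was 0.01.

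Other granule and killing genes were examined as a list of 21, all of them measured. Of these 0 passed over all genes, 13 lay above and 8 below WT, and the median log2 difference was 0.01, against 0.02 over all genes. Of all 18193 genes, 10150 lay above and 8041 below WT. At an unadjusted limma p under 0.05 there were 2 genes, both higher, as were 4.96% of all genes. Lyst, a gene of granule biogenesis, had a difference of 0.53 (SE 0.19, limma adjusted p = 0.666), and Cst7, an inhibitor of granule cathepsins, had 0.37 (SE 0.13, limma adjusted p = 0.669). The other granzymes on the list were dim. Gzmk had the lowest difference of the list, -0.53, with 15.0 and 19.2 in Ncstn KO and 19.9 and 30.1 in WT. Gzmc, Gzmd, Gzme, Gzmf and Gzmg, which lie with Gzmb in 1 gene cluster, read between 3.81 and 12.2 on the 4 arrays and had differences of -0.07 to 0.38. The granule proteoglycan gene Srgn lay at the 99.5th percentile of all genes, with 10621 and 11050.5 in Ncstn KO and 10949 and 10445 in WT.

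Among the receptors, Klrd1 and Cd2 lay farther apart between mice of the same genotype than between the group means, in Ncstn KO and also in WT. Klrd1 encodes CD94, which pairs with NKG2 proteins to read nonclassical MHC molecules. It read 82.15 and 181 in Ncstn KO and 80.1 and 117 in WT, a log2 difference of 0.33 (SE 0.43, limma adjusted p = 0.978). The groups overlapped, Ncstn KO replicate 2 being the highest array. Without Ncstn KO replicate 2 the difference was -0.24. Cd2, the adhesion receptor that binds CD48 in mice, read 30.4 and 72.9 in Ncstn KO and 57.3 and 86.4 in WT, a difference of -0.58 (SE 0.46, adjusted p = 0.940). Here Ncstn KO replicate 1 was the lowest array and the other Ncstn KO array lay between the WT arrays. Without Ncstn KO replicate 1 the difference was 0.05.

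Il2rb, the signalling chain shared by the receptors for interleukins Il2 and Il15, was dim. It read 38.5 and 34.97 in Ncstn KO and 33.0 and 31.8 in WT, a log2 difference of 0.18 (SE 0.22, limma adjusted p = 0.974), with Ncstn KO above WT on both arrays by little. Its other probe set read 15.75 and 14.02 in Ncstn KO and 12.25 and 13.25 in WT, a difference of 0.22 (SE 0.18, in the fit over all probe sets). Scaling to the hybridization controls turned the first of these to -0.02. Of 12 listed partners 11 were measured, and 0 passed, with a median of 0.13 and 9 above WT. Il2ra, which raises the affinity of the receptor for Il2, had an unadjusted p of 0.0238 and read 48.3 and 29.1 in Ncstn KO and 20.3 and 20.6 in WT, a difference of 0.88 (SE 0.29, adjusted p = 0.624). The transcription factor gene Stat3 had a difference of 0.31 (SE 0.12, adjusted p = 0.713).

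Thy1, Ccl5 and Lat lay above WT on both Ncstn KO arrays. Thy1, a small surface glycoprotein of T cells and some stem cells, read 1152 and 698 in Ncstn KO and 466 and 666 in WT. The lower Ncstn KO array and the higher WT array were close, and the log2 difference was 0.69 (SE 0.30, limma adjusted p = 0.776). Ccl5, a chemokine of activated T cells, NK cells and platelets, read 213 and 309 in Ncstn KO and 184 and 139 in WT, a difference of 0.68 (SE 0.29, adjusted p = 0.768). Lat, the membrane adaptor on which T cell receptor signalling complexes assemble, read 1514 and 1713 in Ncstn KO and 1422 and 1433 in WT, a difference of 0.17 (SE 0.13, adjusted p = 0.927). Scaled to the hybridization controls, Lat turned to -0.02, while Thy1 and Ccl5 each had 0.49.

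Over the 10 genes, 0 passed over all genes by limma and 2 had an unadjusted p under 0.05, Gzmb higher and Gzma lower. The background was 0.0% of 18193 genes called at an adjusted p under 0.05 and 6.8% at an unadjusted p under 0.05, 4.96% higher and 1.84% lower. Ncstn KO and WT arrays did not overlap for 7 of the 10 genes, 6 higher and 1 lower, where 34.0% of all genes did not overlap, 21.3% higher and 12.8% lower. A difference of at least 2-fold with separate groups was found for Gzma and Gzmb, 2 of the 10, and for 1.71% of all genes. The median log2 difference was 0.18 over the 10 genes and 0.02 over all genes, and the 10 members were not a random draw of genes. The median of all genes moved to -0.17 and that of the 10 genes to -0.02 under the scaling to the hybridization controls.

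**Figure D2:**
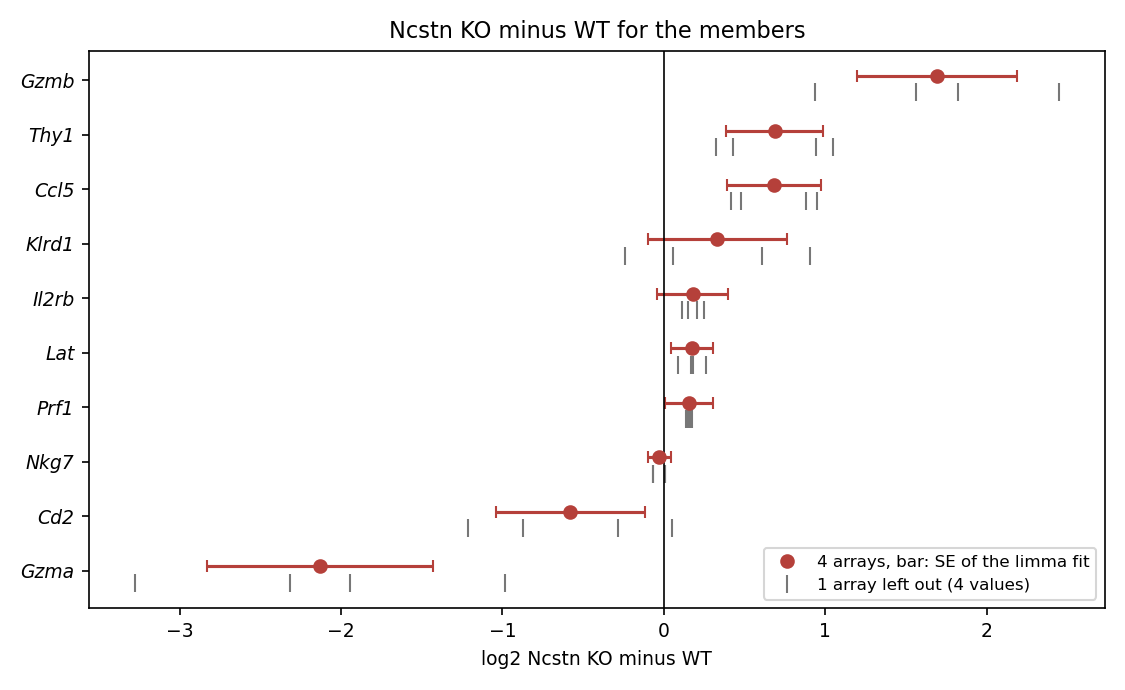
Log2 difference, Ncstn KO minus WT, of the 10 genes from the 4 arrays (points, with the SE of the limma fit as bars) and with 1 array left out in turn (grey ticks). Gzmb and Gzma stand at the ends with 1.69 and -2.13, and the ticks of Gzma run from -3.27 to -0.99.

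Most of the 10 genes varied more between Ncstn KO mice than between WT mice, as did most genes on the arrays. Prf1 and Nkg7 were the exceptions among the 10. The log2 distance between the replicates was wider in Ncstn KO than in WT for 8 of the 10 genes, and for 63.0% of all genes. Its median was 0.63 in Ncstn KO and 0.32 in WT over the 10 genes, and 0.23 in Ncstn KO and 0.15 in WT over all genes. Ncstn KO replicate 1 was the highest of the 4 arrays for Gzmb, Il2rb and Thy1 and the lowest for Gzma and Cd2. Ncstn KO replicate 2 was the highest for Prf1, Ccl5, Klrd1 and Lat and the lowest for Nkg7. No array was the highest or the lowest for all 10.

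Within the sexes, each pair being 1 Ncstn KO and 1 WT array, the granzyme differences varied in size. Their sign was fixed beforehand, since groups that do not overlap give 1 sign in any pairing. Gzma differed by -3.46 in the female pair and by -0.80 in the male pair, and Gzmb by 2.31 in the female pair and 1.07 in the male pair. Thy1 (female pair 0.79, male pair 0.58) and Ccl5 (female pair 0.61, male pair 0.75) had nearby values in both. The pairs opposed each other for 3 of the 10 genes, as they did for 44.3% of all genes. For Klrd1 the female pair gave -0.52 and the male pair 1.18, for Cd2 -1.51 (female) and 0.35 (male), and for Nkg7 0.04 (female) and -0.10 (male). With 1 array per sex and genotype, no test of a difference between the pairs was possible.

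The contrast of female against male arrays, fitted with genotype as a second term, called 0 of the 10 genes (limma adjusted p), and 0.022% of all genes. At an unadjusted p under 0.05 it gave 1 of the 10, Thy1, and 8.58% of all genes. Thy1 read 1152 in the female and 698 in the male Ncstn KO mouse, and 666 in the female and 466 in the male WT mouse, a female minus male log2 difference of 0.62 (SE 0.15, adjusted p = 0.574). Gzmb had 0.89 (SE 0.36) and Gzma -0.96 (SE 0.66).

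**Figure D3:**
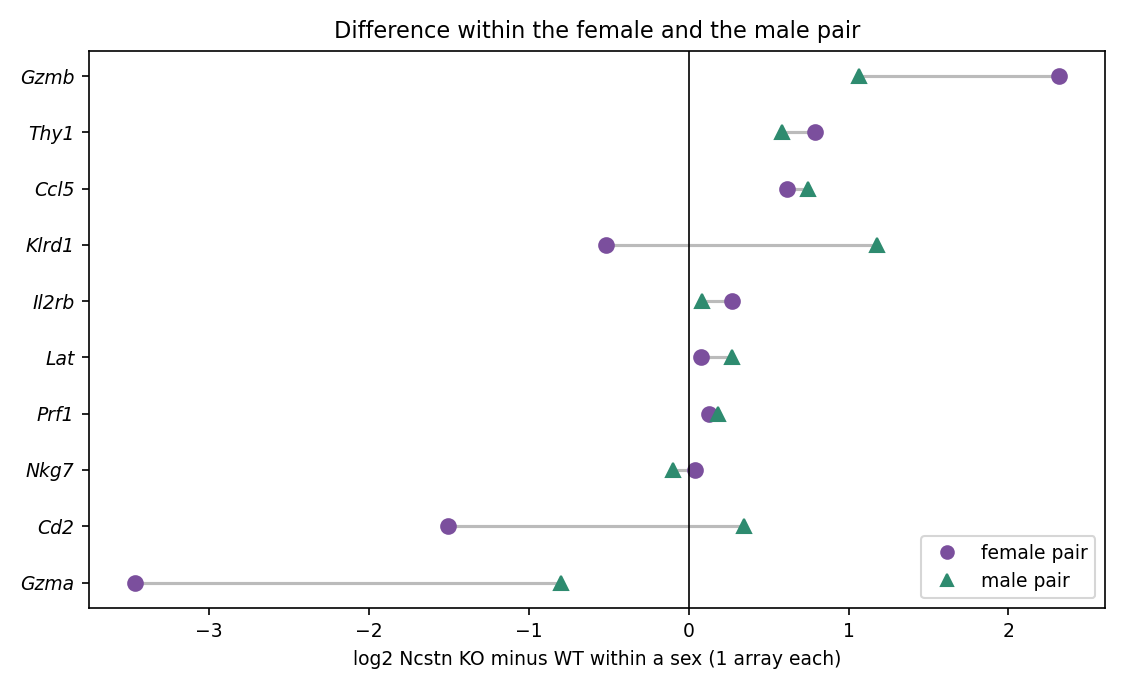
Log2 difference, Ncstn KO minus WT, within the female pair (circles) and the male pair (triangles) for each of the 10 genes, 1 array each. Klrd1 (-0.52 and 1.18), Cd2 (-1.51 and 0.35) and Nkg7 (0.04 and -0.10) have the female and the male pair on opposite sides of 0.

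NK cell genes besides the 10 were mixed. Of 21 measured of 24 listed, 0 passed over all genes, and 13 lay above and 8 below WT, with a median of 0.08. An unadjusted limma p under 0.05 was found for 5, all higher, and for 4.96% of all genes in that direction. Cd7, a surface protein of T, NK and early progenitor cells, read 385 and 501 in Ncstn KO and 146 and 162 in WT, a log2 difference of 1.52 (SE 0.24, limma adjusted p = 0.233). Fcgr3, an activating Fc receptor of NK and myeloid cells, had 1.40 (SE 0.25, adjusted p = 0.287). Hcst, an adaptor of activating receptors, had 0.70 (SE 0.20, adjusted p = 0.544). Of the 21 genes, 13 lay below the 25th percentile of gene levels, among them Ncr1 with a difference of -0.21. The summed intensity of the list was 6974 and 8385 in Ncstn KO and 4705 and 4945 in WT, and Fcgr3, with 1094 and 1720.1 in Ncstn KO and 570.2 and 476 in WT, and the adaptor gene Tyrobp, with 3704 and 5061 in Ncstn KO and 3181 and 3125 in WT, made up most of it. Both are also expressed by myeloid cells.

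T cell genes besides the 10 lay on both sides of WT. Of 19 measured of 20 listed, 0 passed over all genes, 9 lay above and 10 below WT, and the median was -0.0046. The groups did not overlap for 8 of the 19, 6 lower and 2 higher. Of all genes, 12.8% were lower and 21.3% higher without overlap. At an unadjusted limma p under 0.05 there was 1 gene, which was lower, as were 1.84% of all genes. It was the costimulatory receptor gene Cd28, which read 20.2 and 59.5 in Ncstn KO and 94.3 and 91.7 in WT (log2 difference -1.42, SE 0.50, adjusted p = 0.661). Its lowest array was Ncstn KO replicate 1, as for Gzma and Cd2. The summed intensity of the list was 7490.0 and 8276 in Ncstn KO and 7775 and 8354 in WT. In bulk samples, fewer cells of a type and less RNA per cell cannot be told apart, and the part of contaminating lymphocytes in the granzyme differences was not tested.

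Signalling partners of Lat were brighter, with log2 differences of -0.34 to 0.59. Of 13 measured of 15 listed, 0 passed over all genes, 9 lay above WT, and the median was 0.10. The groups did not overlap for 8 of the 13, 7 higher and 1 lower, against 21.3% and 12.8% of all genes. At an unadjusted limma p under 0.05, 2 were higher, as were 4.96% of all genes. These 2 were Plcg2, a phospholipase (0.41, SE 0.11, limma adjusted p = 0.480), and Tec, a kinase (0.57, SE 0.19, adjusted p = 0.619). The T cell kinase gene Zap70 read 71.9 and 90.5 in Ncstn KO and 69.4 and 67.0 in WT. Cd48, the ligand of Cd2, read 10072 and 9265 in Ncstn KO and 10229 and 10456 in WT. Of 4 measured Cd2 partners 0 passed, and Pstpip1, which binds the tail of Cd2, had an unadjusted p of 0.0276 and a difference of 0.38 (SE 0.13, adjusted p = 0.648).

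Ccl5 receptors and related chemokines held wider differences. Of 9 measured of 10 listed, 0 passed over all genes, and 5 had a positive and 4 a negative difference around a median of 0.05. An unadjusted limma p under 0.05 was found for 3 higher and 1 lower, against 4.96% and 1.84% of all genes. Ccr1, a receptor of Ccl5, read 294 and 372 in Ncstn KO and 94.7 and 83.3 in WT, a log2 difference of 1.90 (SE 0.25, limma adjusted p = 0.192). Ccl6, a myeloid chemokine, read 1187 and 1470 in Ncstn KO and 725 and 549.9 in WT (1.07, SE 0.20, adjusted p = 0.305). Ccr3, another Ccl5 receptor, was dim, at 7.87 and 6.30 in Ncstn KO and 10.1 and 11.1 in WT (-0.59, SE 0.17, adjusted p = 0.544). Ccl3 and Ccl4, named after their values were seen, were lowest on 1 array. Ccl3 read 973 and 4848 in Ncstn KO and 3094 and 3397 in WT, and Ccl4 read 1599 and 5958 in Ncstn KO and 4408 and 3733 in WT. The low array was Ncstn KO replicate 1 for both, the array on which Gzma and Cd2 were also lowest.

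**Figure D4:**
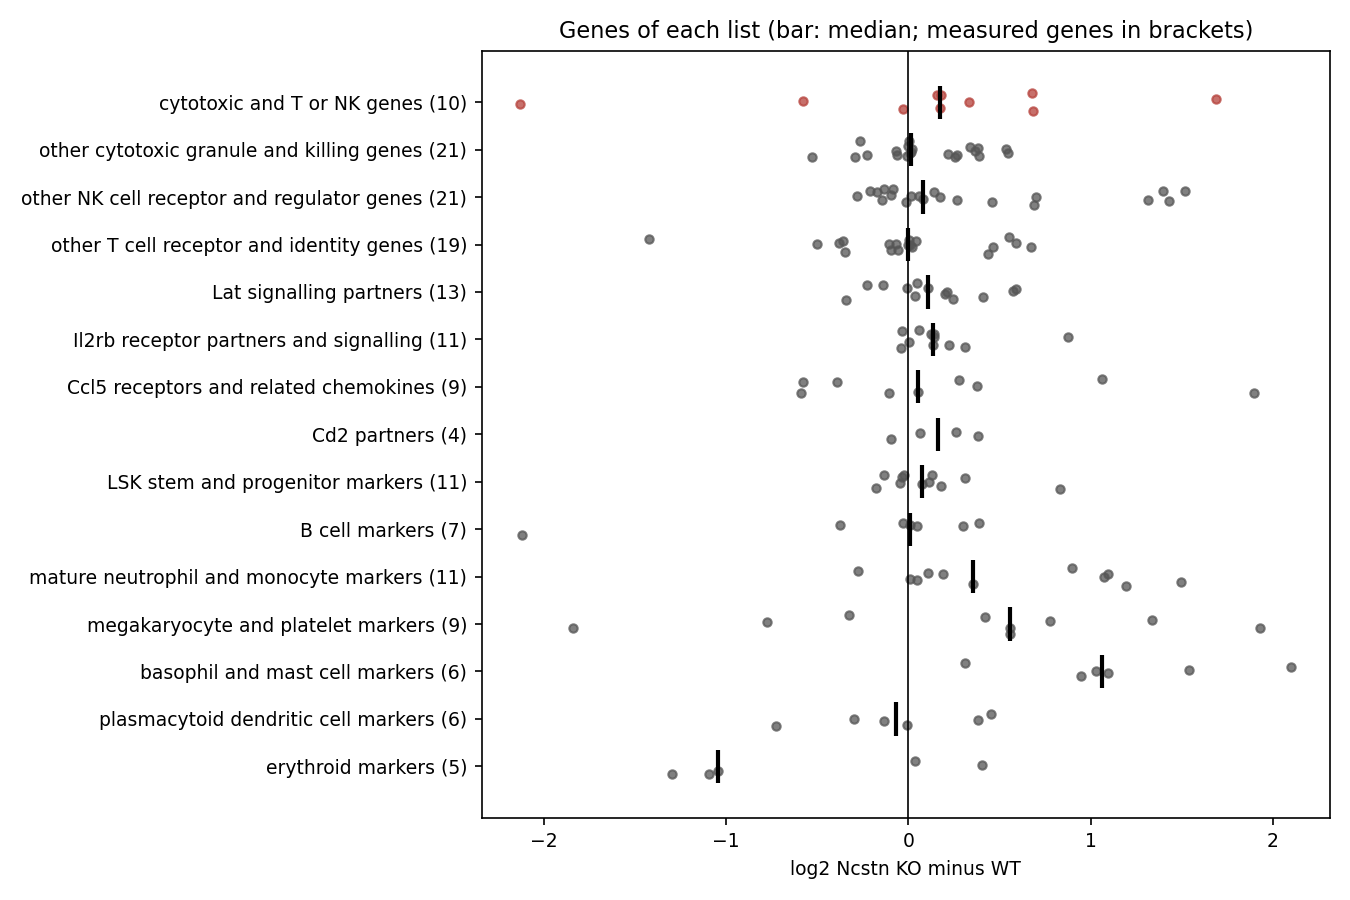
Log2 difference, Ncstn KO minus WT, of each measured gene in the 10 cytotoxic and T or NK genes (top row, red) and in 14 companion lists, with a bar at each list's median. The 10 genes spread from -2.13 to 1.69 around a median of 0.18, while the basophil and mast cell list has its median at 1.06 and the erythroid list at -1.05.

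Markers of other cells that a sort could hold lay on both sides of WT, and 0 genes of these lists passed over all genes by limma. Of all 18193 genes, 10150 lay above WT, and 4.96% were higher at an unadjusted limma p under 0.05. Basophil and mast cell markers were above WT for 6 of 6 measured genes, all with an unadjusted p under 0.05. Their summed intensities were 12359 and 11483 in Ncstn KO and 8081 and 7643 in WT. Most of each sum was Gata2, with 7044 and 7042 in Ncstn KO and 5894 and 5491 in WT. Gata2 was also among the listed LSK stem and progenitor markers. Its log2 difference of 0.31 was the lowest of the basophil and mast cell list, whose median was 1.06. Mcpt8 had 1.03 (SE 0.12, limma adjusted p = 0.161), Cpa3 had 1.10 (SE 0.18, adjusted p = 0.233) and Ms4a2 had 1.54 (SE 0.25, adjusted p = 0.233). Megakaryocyte and platelet markers were above WT for 6 of 9 and below it for 3, with sums of 6376 and 6447 in Ncstn KO and 2386 and 4228 in WT. Selp, with 3053 and 3224 in Ncstn KO and 858 and 789 in WT, made up a large part of these sums. The platelet gene Ppbp had the lowest difference of the list, -1.84. Mature neutrophil and monocyte markers were above WT for 10 of 11, with overlapping sums of 44726 and 57442 in Ncstn KO and 50390.3 and 42509 in WT. Of these 11 genes, 5 were higher and 0 lower at an unadjusted limma p under 0.05. Ccr2, Cxcr2 and Cd14 were among the 5, each with separate groups. The median log2 difference of the list was 0.36. It depended on single arrays, with -0.03 without Ncstn KO replicate 2 and 0.83 without Ncstn KO replicate 1.

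Erythroid markers lay mostly on the other side. Of 5 measured genes 3 were below WT, all with separate groups, as were 12.8% of all genes. The sums were 995 and 889 in Ncstn KO and 1548 and 1005 in WT. The median log2 difference of the list was -1.05, which became -0.56 when Ncstn KO replicate 1 was left out and -0.55 when WT replicate 1 was. Alas2, which encodes the erythroid enzyme that starts haem synthesis, had -1.30 (SE 0.36, limma adjusted p = 0.532), and Trim10 had -1.10 (SE 0.35, limma adjusted p = 0.604). B cell markers had no common direction, with 4 of 7 above WT, a median of 0.0065 and overlapping sums of 2683 and 3148 in Ncstn KO and 2855 and 3339.8 in WT. Among them Ms4a1, which encodes the B cell surface protein CD20, read 53.4 and 53.5 in Ncstn KO and 221 and 245 in WT. Its log2 difference of -2.12 (SE 0.24, limma adjusted p = 0.161) was close in size to that of Gzma, and it was the B cell marker with an unadjusted p under 0.05. Plasmacytoid dendritic cell markers were above WT for 2 of 6, with sums of 7671 and 7749.5 in Ncstn KO and 7830.0 and 8204 in WT, and the transcription factor gene Spib had -0.73 (SE 0.26, limma adjusted p = 0.671). The part of these cells in the values of Ccl5 and Lat, which platelets or mast cells also express, was not tested.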

How the data were processed

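Expression was measured on 4 Affymetrix arrays, and amplification started from 5 ng of RNA, per the labels' protocols, which adds noise for rare transcripts. The authors deposited linear intensities, 1 per probe set, made with RMA according to the submitters' processing notes (version not given in the sources used here). Log2 was taken with no offset, and no further scaling was applied. Probe sets were named through GEO's platform annotation of 2016, in which 34945 named 1 gene, 932 several and 9160 none (64 controls were left out). Of the former, 34741 matched the RefSeq table of GRCm38.p6, which changed 0 symbols. The probe set with the highest mean log2 represented each of 18193 genes.

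Ncstn KO was tested against WT in R 4.3.3 by limma 3.58.1, using moderated variances with a trend on level and genotype as the sole term (two-sided, Benjamini-Hochberg over all genes, threshold 0.05). The fit had 2 residual and a mean of 4.11 prior degrees of freedom, and was tested on simulated data. Females were tested against males with genotype as a second term. The number of arrays limits the precision. Deviations of same-numbered arrays from their group means correlated at -0.24 across genes. With 2 arrays per group, the value for arrays of the same sex is this one with its sign turned. Same-numbered arrays were of opposite sex, so this value cannot decide whether the numbers pair the samples. The named genes were the 10 members, Ncstn, Kit, Ly6a, Klrb1c, Cd3d, Cd3e, Cd3g and Ncr1, and at most 3 members of each of 14 companion lists with an unadjusted p under 0.05. Other list members were named for a low or high value after their values were seen. They were Ccl3, Ccl4, Gzmc to Gzmg, Gzmk, Srgn, Ppbp, Tyrobp, Zap70 and Cd48. Members, lists and motifs were chosen with earlier results of these data known. Some listed genes, Klrb1c among them, were not analysed here. Figures were drawn with matplotlib 3.10.9.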

Additional observations from a re-analysis of the deposited data

Results flagged for a closer look

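For 3 of the 10 genes the female and the male pair lay on opposite sides of 0, where 44.3% of all genes did so, and the difference between the pairs was not tested because each sex and genotype had 1 array. Klrd1 had a log2 difference, Ncstn KO minus WT, of -0.52 in the female pair and 1.18 in the male pair. Cd2 had -1.51 in the female pair and 0.35 in the male pair. Nkg7 had 0.042 in the female pair and -0.10 in the male pair, both close to 0.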

How the results depend on the processing

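Over 13 alternatives, 116 of 124 values of single members kept their direction and their side of the threshold. Many of these could not change direction. Fits with sex as a covariate, with a replicate block or without a variance trend leave each difference as it was, so only its p could move. That also held for members with 1 probe set when probe sets were averaged. It held too for the subset of genes above the median level. Leaving out Ncstn KO replicate 2 let Gzma pass (-3.27, adjusted p = 0.0282, over a range of 0.0282 to 1.0 in its alternatives), so the count of members past the threshold ran from 0 to 1 when 1 array was left out. The other members did not pass in any alternative, 6 of the 10 being untested in the alternative with only genes above the median level. Signs turned for Prf1 (-0.040), Il2rb (-0.017) and Lat (-0.022) under scaling to the hybridization controls, which also moved the members' median to -0.020. With 1 array left out they turned for Nkg7 (-0.066 to 0.0064, positive without WT replicate 1 or Ncstn KO replicate 2), Cd2 (-1.21 to 0.052, positive without Ncstn KO replicate 1) and Klrd1 (-0.24 to 0.90, negative without Ncstn KO replicate 2). The members' median ran from 0.12 to 0.21 with 1 array left out. The count of all genes past the threshold, 0 in the main analysis (1237 at an unadjusted p under 0.05), was 3 after quantile normalization, 62 after centring on the median, 2 among genes above the median level and 0 to 27 with 1 array left out, 23 without Ncstn KO replicate 1 and 27 without Ncstn KO replicate 2. The cause of these shifts was not tested. With the replicate number as a block, 0 genes passed, members included, and the members' median of 0.18 could not move in this balanced design. The crossed pairing, which joins arrays of the same sex, gave 0 genes. For female against male arrays the count of all genes, 4, was 58 after centring on the median, 2 among genes above the median level and 0 without a variance trend, and 0 members passed in any of 7 alternatives. With 1 array left out, a genotype had 1 array of 1 sex, whose spread was taken as that of the other group. Signal over background was not assessed, and 6 of the 10 members lay below the median gene level of 8.04 (log2).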

Other observations

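Among receptors of the interleukin family on the NK cell list, Il18r1, named after its values were seen, was high on 1 array. It read 574 on Ncstn KO replicate 1 and 41.6 on Ncstn KO replicate 2, against 31.1 and 106 on WT replicates 1 and 2, a log2 difference of 1.43 (SE 1.22, limma adjusted p = 0.947). Both female arrays lay above both male arrays, with a female minus male log2 difference of 2.78 (SE 0.52, limma adjusted p = 0.574). Klrb1a and Klrk1, lectin-like receptor genes of NK cells, were also highest on that array. The NK cell list was mixed there, with Ncr1, Klre1, Klrb1b and Klra1 lowest on that array and others, such as Eomes, highest. Klrb1a read 41.8 and 17.3 in Ncstn KO and 10.02 and 11.7 in WT. Klrk1 read 42.9 and 12.1 in Ncstn KO and 12.6 and 15.8 in WT, again with both female arrays above both male arrays. The chemokine gene Cxcl9 read 244 and 31.4 in Ncstn KO and 53.7 and 165 in WT, with both female arrays above both male arrays. Apart from Ncr1, the other genes named here were likewise chosen after their values were seen, and none of the genes passed over all genes.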
